A study of Mus musculus with 2 samples.

Results

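The Calcr and Prox1 GABA nuclei are a small set of GABAergic nuclei of the ventrolateral periaqueductal gray (vlPAG), a column of the midbrain around the aqueduct, picked by the RNA they hold. A nucleus was a member when it held at least 1 UMI of Gad1, Gad2 or Slc32a1 and more of these than of Slc17a6, Slc17a7 and Slc17a8, at least 1 UMI of 9030622O22Rik, at least 4 UMIs of 9030622O22Rik, Calcr and Prox1 together, and none of Six3. A UMI is the tag that counts 1 captured RNA molecule. The rule was met by 273 of 13822 nuclei, 165 of 6322 in the HFD library and 108 of 7500 in the NFD library. The HFD library came from the pooled vlPAG of 18 wild-type C57/BL6J mice that ate a high-fat diet for 7 weeks, starting when they were 8 weeks old, and the NFD library from 18 such mice kept on normal food diet. The study set these libraries side by side to look at gene expression in vlPAG GABAergic cells of diet-induced obese mice. With 1 library per diet, the diet, the pool of mice and the library cannot be told apart, nothing is tested, and every interval is a 95% interval that covers counting error only.

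GABAergic neurons of the vlPAG release the inhibitory transmitter GABA, made by the enzymes encoded by Gad1 and Gad2 and loaded into vesicles by the transporter encoded by Slc32a1, and the region is known for its part in defence, pain control and feeding. Calcr encodes the calcitonin receptor, a G protein-coupled receptor that binds amylin when it is paired with a receptor activity-modifying protein (RAMP). Prox1 encodes a homeobox transcription factor that marks several kinds of inhibitory interneuron in the mouse forebrain, and 9030622O22Rik is annotated as a long intergenic noncoding RNA at chr2:147944740-148040203 on the minus strand (GRCm38, GENCODE M21). Sst encodes somatostatin, a peptide that many inhibitory neurons release beside GABA.

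Members made up 7.19% (6.17 to 8.33%) of 2294 GABAergic nuclei in the HFD library and 4.05% (3.34 to 4.87%) of 2665 in the NFD library (Clopper-Pearson intervals). Depth moved with this share, and a rule on UMIs is met more readily by a deeper nucleus. GABAergic nuclei held a median of 9063.5 UMIs in the HFD library and 5326 in the NFD library. Nuclei with at least 4000 UMIs were then thinned to 4000 UMIs before the rule was applied, and shallower nuclei were left out. This kept 4572 of 6322 nuclei in the HFD library and 4195 of 7500 in the NFD library, so the libraries lost unequal shares. Of the GABAergic nuclei left, 48 of 1741 (2.76%, 2.04 to 3.64%) were members in the HFD library and 33 of 1570 (2.10%, 1.45 to 2.94%) in the NFD library. The intervals overlapped at that depth. At 2000 UMIs, with shallower nuclei again left out, the counts were 11 of 1378 (0.798%, 0.399 to 1.42%) in the HFD library and 3 of 1716 (0.175%, 0.036 to 0.510%) in the NFD library. Members held a median of 13869 UMIs in the HFD library and 9127.5 in the NFD library, against 8717 and 5193 in the other GABAergic nuclei of each library, and the shallowest member held 4224 UMIs in the HFD library and 3654 in the NFD library.

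Over all kept nuclei the median was 7347.5 UMIs in the HFD library and 4504.5 in the NFD library. The libraries shared 12 barcodes among kept nuclei and 0 among members. Oligodendrocyte markers (Mag, Mog and Mobp) summed to 3 UMIs in HFD members and 4 in NFD members, and astrocyte markers (Aqp4, Gja1 and Aldh1l1) to 11 and 3. Serotonergic markers (Tph2, Slc6a4 and Fev) were at 112 CPM in HFD members, against 194 CPM in other HFD GABAergic nuclei, and at 39.6 and 121 CPM in the NFD library. Dopaminergic markers summed to 113 and 58 UMIs in members. Microglial markers summed to 63 and 40. They were at 23.8 CPM in HFD members and 34.6 CPM in other HFD GABAergic nuclei, and at 33.0 and 36.0 CPM in the NFD library. Nuclei with 2 or more such UMIs were 5.45% of HFD members and 5.64% of other HFD GABAergic nuclei. In the NFD library they were 8.33% and 2.78%, not adjusted for the greater depth of members. At least 2 UMIs of some other class were held by 31 HFD members (18.8%) and 16 NFD members (14.8%), most often of microglial, dopaminergic or ependymal genes, and an Slc17 UMI by 20 and 10. The ratios of members over other nuclei and of HFD over NFD were also computed without these nuclei. Signs were followed over the alternatives for a chosen set of genes only, and those that turned are named below.

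The label of the set could be checked against its own rule genes only as a description, since these values chose the nuclei. Calcr was detected in 100 HFD members (60.6%) and 55 NFD members (50.9%), and Prox1 in 135 (81.8%) and 74 (68.5%). Both genes were found in 85 HFD and 44 NFD members, Prox1 alone in 50 and 30, and Calcr alone in 15 and 11. A further 15 HFD and 23 NFD members held neither and entered on 9030622O22Rik alone, so the name fits most members but not every one. Summed over members, 9030622O22Rik stood at 407 CPM (UMIs of the gene per 1000000 UMIs of the group) in the HFD library and 410 CPM in the NFD library, Calcr at 157 and 136 CPM, and Prox1 at 155 and 156 CPM. Members sat close to the threshold in part, with 16 HFD and 25 NFD members at exactly 4 UMIs. These had Sst at 277 and 332 CPM and Foxp2 at 631 and 504 CPM, against 225 and 289 CPM of Sst and 544 and 268 CPM of Foxp2 in the 12 HFD and 28 NFD nuclei just outside, which held 3 UMIs.

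Most members were grouped together when GABAergic nuclei were sorted without the rule genes. All GABAergic nuclei were clustered on 2000 variable genes with the rule genes and Prox1os left out, which gave 27 clusters. A single cluster took up 140 of 165 HFD members (84.8%) and 81 of 108 NFD members (75%). The same cluster held 59 HFD and 85 NFD nuclei that did not meet the rule, at median depths of 8800 and 5837 UMIs, and these carried Sst at 258 and 384 CPM, Foxp2 at 490 and 499 CPM, Calcr at 121 and 88.0 CPM and Prox1 at 113 and 106 CPM. The cluster and the rule overlapped without being the same set of nuclei. As a share of GABAergic nuclei the cluster was 8.67% (7.55 to 9.90%) in the HFD library and 6.23% (5.34 to 7.21%) in the NFD library. At a resolution of 0.5 the same numbers of members, 140 and 81, lay in 1 cluster of 18, and at 2.0 the leading cluster of 35 held 96 HFD and 68 NFD members. The shares at 0.5 were 8.59% (7.47 to 9.81%) in the HFD library and 6.23% (5.34 to 7.21%) in the NFD library. At 2.0 they were 5.93% (4.997 to 6.974%) and 4.69% (3.919 to 5.563%), with overlapping intervals. These shares were not adjusted for depth, and the part of depth in them was not tested. The 25 HFD and 27 NFD members outside the cluster had less Calcr (65.9 and 56.0 CPM), Prox1 (47.8 and 53.1 CPM) and Il1rapl2 (2329 and 2518 CPM) than those inside it, which stood at 184 and 167 CPM of Calcr, 187 and 196 CPM of Prox1 and 4763 and 4708 CPM of Il1rapl2. Sst outside the cluster was at 255 CPM in HFD members but 61.9 CPM in NFD members, below the 79.3 CPM of other NFD GABAergic nuclei.

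The markers proposed with the set were Sst, Il1rapl2, Foxp2 and Adarb2, none of which the rule used. Sst was detected in 137 of 165 HFD members and 71 of 108 NFD members. Per 10000 UMIs of a nucleus, Sst in HFD members had a lowest value of 0, a median of 2.21 and a highest of 37.2, and in NFD members 0, 1.47 and 26.7. In both libraries the median of the other GABAergic nuclei was 0, but their highest values, 106 and 113, lay above those of every member. Sst was thus higher across members, while the highest values per 10000 UMIs lay outside them. In UMIs not scaled to depth, the highest count was 43 in HFD members and 29 in other HFD nuclei, and 22 and 23 in the NFD library. Summed over nuclei it was at 312 CPM in HFD members and 67.8 CPM in other HFD GABAergic nuclei (log2 ratio 2.20, 2.08 to 2.32), and at 283 and 79.3 CPM in the NFD library (log2 ratio 1.83, 1.66 to 2.01). Members thus held 35.5% of the Sst UMIs of all GABAergic nuclei in the HFD library and 21.5% in the NFD library, while they held 10.7% and 7.12% of all UMIs.

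**Figure D1:**
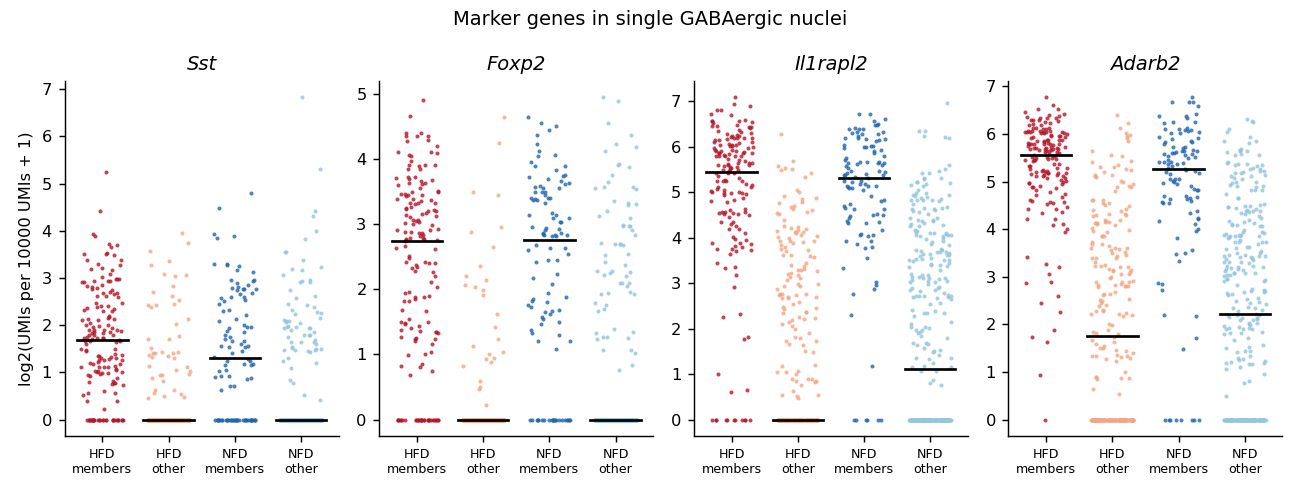
UMIs per 10000 UMIs of a nucleus, on a log2 scale after adding 1, for Sst, Foxp2, Il1rapl2 and Adarb2. Each point is 1 nucleus (all 165 HFD and 108 NFD members, and every 8th of the other GABAergic nuclei), the black line is the median over all nuclei of the group, and the member medians lie above the other medians in each panel and library.

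Foxp2 encodes a forkhead transcription factor. It was at 598 CPM in HFD members and 49.5 CPM in other HFD GABAergic nuclei (log2 ratio 3.59, 3.48 to 3.71), and at 653 and 95 CPM in the NFD library (2.78, 2.66 to 2.91). Members held 59.2% of the Foxp2 UMIs of HFD GABAergic nuclei and 34.5% of those of NFD GABAergic nuclei. Il1rapl2, which encodes a synaptic adhesion molecule related to the interleukin 1 receptor, was at 4204 CPM in HFD members and 554 CPM in the other nuclei (2.92, 2.89 to 2.96), and at 4096 and 769 CPM in the NFD library (2.41, 2.37 to 2.46). Adarb2, a brain relative of the RNA-editing adenosine deaminases, was at 4313 and 991 CPM (2.12, 2.09 to 2.15) in the HFD library and at 3948 and 1023 CPM (1.95, 1.90 to 2.00) in the NFD library. It was found in 164 of 165 HFD members and 100 of 108 NFD members.

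Oligodendrocyte-like nuclei, which should lack these neuronal genes, gave the background from free RNA in the droplets. Nuclei with at least 2000 UMIs were thinned to that depth. Sst was then found in 39.4% of HFD and 34.3% of NFD members, and in 0 of 26 and 3.4% of 29 oligodendrocyte-like nuclei. Over all nuclei of each group, median depths before thinning were 13869 and 9127.5 UMIs in members and 2098 and 1798 in oligodendrocyte-like nuclei. Foxp2 was found in 57.6% and 61.1% of thinned members, against 3.8% and 0% of the thinned oligodendrocyte-like nuclei. Oligodendrocyte-like nuclei could not serve for Prox1, which stood at 194 CPM in the HFD library and 143 CPM in the NFD library there, as high as in members. Glutamatergic nuclei held Prox1 at 11.8 and 8.0 CPM.

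Sst-bearing GABAergic nuclei outside the set were not like the members in the other proposed markers. These were the 182 HFD and 135 NFD GABAergic nuclei with at least 3 Sst UMIs and no 9030622O22Rik. Chosen on Sst, they held it at 480 and 742 CPM. Their Foxp2 was at 74.7 and 126 CPM, their Il1rapl2 at 629 and 1075 CPM and their Adarb2 at 1524 and 1649 CPM, each below its level in members. Nuclei with Calcr or Prox1 but no 9030622O22Rik differed by gene and library. All other GABAergic nuclei with no 9030622O22Rik had Sst at 62.9 CPM in the HFD library and 72.1 CPM in the NFD library, Foxp2 at 36.8 and 79.9 CPM, and Il1rapl2 at 523 and 714 CPM. Within them, the 74 HFD and 56 NFD nuclei with at least 2 Calcr UMIs had Sst at 57.2 and 80.2 CPM, Foxp2 at 108 and 89.5 CPM, and Il1rapl2 at 461 and 474 CPM. The 114 HFD and 61 NFD nuclei with at least 2 Prox1 UMIs had Sst at 28.9 and 75 CPM, Foxp2 at 77.8 and 152 CPM, and Il1rapl2 at 513 and 1215 CPM. Each of these levels was below its level in members.

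Il1rapl2 and Foxp2 went up with the number of 9030622O22Rik UMIs, as did depth between the ends of the range. Over GABAergic nuclei without Six3, Il1rapl2 was at 539, 1891, 2905 and 4706 CPM in HFD nuclei with 0, 1, 2 to 3 and at least 4 UMIs of 9030622O22Rik, and at 730.5, 1908, 2540 and 4970 CPM in the same groups of NFD nuclei. Foxp2 was at 35.1, 365, 526 and 652 CPM in the HFD library and at 81.0, 315, 560 and 727 CPM in the NFD library. Sst did not go up at each step in the NFD library, with 61.0, 168, 323 and 340 CPM in HFD nuclei and 69.3, 238, 225 and 300 CPM in NFD nuclei. Median depth was 14849 UMIs in HFD nuclei and 9114.5 in NFD nuclei with at least 4 UMIs of 9030622O22Rik, against 8649 and 5161.5 in nuclei with none. Nuclei with 1 UMI already had Il1rapl2 and Foxp2 above nuclei with none.

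Among 13424 genes with at least 100 UMIs in members and other GABAergic nuclei together, 46 were higher in members by an interval wholly beyond 2-fold in both libraries, which is 0.343% of the genes measured, and 30 were lower by the same rule, which is 0.223%. The members were chosen from these same nuclei, so the counts are a description of them. The median log2 ratio over all genes was -0.04 in each library. Thinning the nuclei with at least 4000 UMIs to that depth, without the shallower ones, gave 29 genes higher, 28 of them among the 46.

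**Figure D2:**
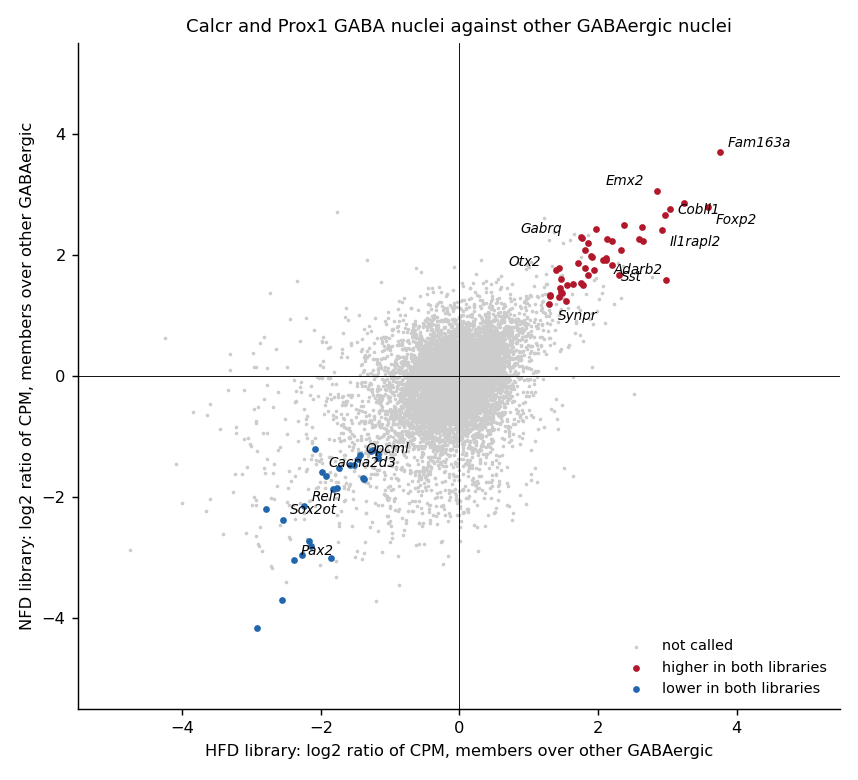
Log2 ratio of CPM of members over other GABAergic nuclei for each measured gene with UMIs in all 4 groups, in the HFD library (x axis) and the NFD library (y axis). Red points are called higher and blue points lower beyond 2-fold in both libraries, such as Fam163a at 3.77 and 3.69 and Reln at -2.24 and -2.16.

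Fam163a led the higher genes, at 73.0 CPM in HFD members and 5.36 CPM in other HFD nuclei, and at 89.0 and 6.89 CPM in the NFD library (log2 ratios 3.77 and 3.69). It was detected in 89 of 165 HFD members and 53 of 108 NFD members. The highest genes included a homeobox gene. Emx2, a transcription factor gene of the developing forebrain, was at 14.4 CPM in HFD members and 2.00 CPM in other nuclei, and at 24.7 and 2.97 CPM in the NFD library, in 33 HFD and 20 NFD members. Otx2, another homeobox gene, had smaller log2 ratios of 1.39 (1.10 to 1.67) in the HFD library and 1.75 (1.33 to 2.15) in the NFD library. It was not particular to the set, at 50.3 and 53.6 CPM in members and 48.6 and 45.3 CPM in the Sst-bearing GABAergic nuclei outside. GABAergic nuclei with Six3, and at least 4 UMIs of Six3 and Col23a1 together, numbered 21 in the HFD library and 6 in the NFD library. They held Otx2 at 77.8 and 15.4 CPM, the latter from 1 UMI. The antisense genes next to Emx2 and Otx2 went with them, Emx2os at 2.64 and 2.45 and Otx2os1 at 1.91 and 1.98. Prox1os, beside the rule gene Prox1, was at 3.24 and 2.84. The strand setting of the counting was not given in the sources used here, so reads from a gene and its antisense partner cannot be told apart where they overlap, as Prox1 and Prox1os do.

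Others of the 46 encode signalling, sulfation and guidance proteins, named here one by one and not as a tested group. Ror2, which encodes a receptor tyrosine kinase for Wnt5a, had log2 ratios of 2.96 (2.67 to 3.26) in the HFD library and 2.65 (2.26 to 3.04) in the NFD library. Pde11a, a phosphodiesterase gene for cAMP and cGMP, had 2.59 and 2.25, and Erbb4, the neuregulin receptor gene, 1.31 and 1.32. Hs3st2 (2.20 and 2.23), Hs3st3a1 (1.76 and 2.27) and Hs3st3b1 (2.12 and 1.91) all encode heparan sulfate 3-O-sulfotransferases. Sema5b, a semaphorin gene of axon guidance, had 2.34 and 2.08. At the synapse, Gabrq, the theta subunit gene of the GABA-A receptor, had 1.76 and 2.29, and Synpr, a synaptic vesicle gene, 1.29 and 1.19. The highest genes also held Cobll1 (3.05 and 2.75), Gm26608 (2.38 and 2.49) and Tmem114 (2.65 and 2.22). Cobll1 was at 124 and 111 CPM in members, but at 364 and 254 CPM in oligodendrocyte-like nuclei of the HFD and NFD library. Otx2, Otx2os1, Erbb4, Hs3st3a1, Hs3st3b1 and Sema5b lie outside the naming rule and were chosen after their values were seen.

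Lower genes included markers of other GABAergic groups. Pax2, a paired box transcription factor gene of inhibitory neurons, had 7 UMIs in HFD members and 2 in NFD members (2.65 and 1.65 CPM, against 13.9 and 13.6 CPM in the other nuclei of each library). Gli3, a transcription factor gene of hedgehog signalling, had 3 and 0 UMIs, and the vomeronasal receptor gene Vmn1r209 had 0 in both libraries. Counts this low leave the size of the difference imprecise. Reln, which encodes the secreted glycoprotein reelin, was at 21.2 CPM in HFD members and 99.9 CPM in other nuclei (log2 ratio -2.24, -2.65 to -1.86), and at 17.3 and 77.1 CPM in the NFD library (-2.16, -2.85 to -1.54). Sox2ot, a noncoding RNA gene around Sox2, had -2.55 and -2.38, but 1 nucleus gave 41.2% of its UMIs in HFD members and 1 gave 49.5% in NFD members. Gm6213, B020031H02Rik, Hydin, Plch2, Tns1, Gm38505 and Prkcq complete the 12 lowest, each with at most 12 UMIs in the members of a library.

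Cacna2d3, which encodes an alpha2delta auxiliary subunit of calcium channels, was at 137 CPM in HFD members and 542 CPM in other HFD nuclei (log2 ratio -1.99, -2.14 to -1.84), and at 166 and 500 CPM in the NFD library (-1.59, -1.80 to -1.39). Kcnmb2, an auxiliary subunit gene of BK potassium channels, had -1.77 and -1.86, and Gria3, an AMPA receptor subunit gene, -1.18 and -1.36. These were the single genes called among 21 calcium channel, 50 potassium channel and 23 glutamate receptor genes measured, all 3 of them lower. Over all genes 0.223% were called lower. In a list of transcription factor and related genes of GABAergic neurons, of which 78 were measured, Foxp2 and Otx2 were called higher, and genes including Sox2ot, Zfpm2, Pax2, Bcl11a and Gli3 lower, with a median log2 ratio over the list of -0.56 in the HFD library and -0.46 in the NFD library. Synaptic adhesion genes held Il1rapl2 as the called higher gene and Cdh13, Kirrel3 and Opcml as the called lower genes of 90 measured. The shares over all genes, 0.343% higher and 0.223% lower, stand beside these lists.

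**Figure D3:**
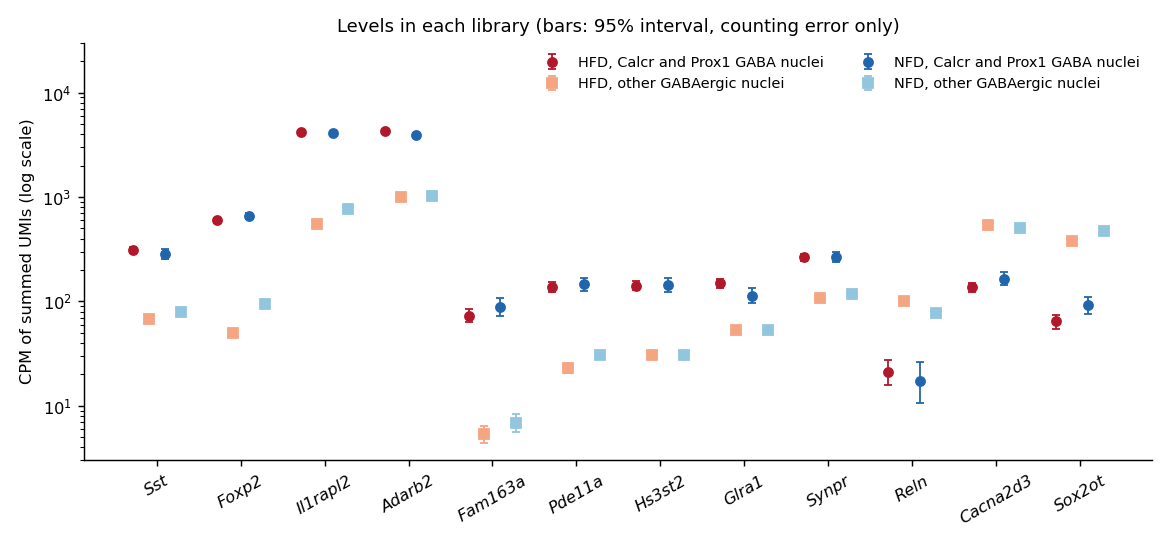
CPM of summed UMIs on a log axis for 12 genes in members (circles) and other GABAergic nuclei (squares) of the HFD (red) and NFD (blue) library, with exact Poisson 95% intervals for counting error. The first 9 genes lie higher in members and Reln, Cacna2d3 and Sox2ot lower, in both libraries.

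None of 14 transmitter genes measured was called in both libraries. Over all genes 0.343% were called higher and 0.223% lower, so no call in so short a list says little about it. Gad2 was at 271 CPM in HFD members and 336 CPM in other HFD nuclei, and at 299 and 355 CPM in the NFD library. Both groups had to meet the same rule on Gad1, Gad2 and Slc32a1, which shapes these levels. Slc6a5, the glycine transporter gene that marks glycinergic neurons, had 5 UMIs (1.89 CPM) in HFD members, against 10.4 CPM in other HFD nuclei, and 2 UMIs (1.65 CPM) in NFD members, against 10.5 CPM. Glra1, a glycine receptor subunit gene, was at 149 CPM in HFD members and 53.8 CPM in other nuclei (log2 ratio 1.47, 1.30 to 1.64), and at 114 and 53.2 CPM in the NFD library (1.10, 0.83 to 1.36), beyond 2-fold by its interval in the HFD library only.

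Of 14 neuropeptide genes measured, Sst was called higher and none lower, beside 0.343% and 0.223% of all genes. Pnoc, the prepronociceptin gene, was at 39.4 CPM in HFD members and 25.0 CPM in other nuclei (log2 ratio 0.66, 0.34 to 0.96), and at 37.9 and 31.3 CPM in the NFD library (0.28, -0.19 to 0.72). Penk, the enkephalin precursor gene, was at 14.4 CPM in HFD members and 28.2 CPM in other nuclei, and at 15.7 and 37.3 CPM in the NFD library, with the member UMIs in 18 HFD and 6 NFD nuclei. Npy, which encodes neuropeptide Y and often accompanies Sst in mouse forebrain interneurons, had 3 UMIs in HFD members and 1 in NFD members. Vip, the vasoactive intestinal peptide gene, reached 28 UMIs in NFD members from 3 nuclei and 4 UMIs in HFD members from 1 nucleus, too few nuclei to describe the set.

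The partners that make an amylin receptor of Calcr were near the limit of detection. Ramp1 had 1 UMI in HFD members and 0 in NFD members, Ramp2 9 and 2, and Ramp3 4 and 1, while Calcrl, the related receptor gene, had 5 and 3. A count of 0 allows up to 3 counts, or 1.14 CPM in HFD members and 2.47 CPM in NFD members. Iapp, which encodes amylin, had no UMI in GABAergic nuclei of either library. The somatostatin receptor genes were as sparse, with Sstr2 at 7 and 2 UMIs and Sstr1, Sstr3 and Sstr4 at 0. Oprk1, the kappa opioid receptor gene, was at 50.3 CPM in HFD members and 22.1 CPM in other nuclei (1.19, 0.90 to 1.47), and at 42.0 and 23.4 CPM in the NFD library (0.84, 0.39 to 1.27). Lepr, the leptin receptor gene, was at 22.7 and 9.76 CPM in the HFD library (1.22, 0.78 to 1.64) and at 25.5 and 16.8 CPM in the NFD library (0.60, 0.02 to 1.14), in 36 HFD and 21 NFD members. Neither Oprk1 nor Lepr was called, nor was any of 14 feeding hormone receptor genes measured. Over all genes the shares called were 0.343% higher and 0.223% lower.

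Members were then divided by Calcr, a gene the rule used, so the division is a description of nuclei already chosen in part on it. Of 5599 genes 16 were higher in members with a Calcr UMI by an interval wholly beyond 0.32 on the log2 scale in both libraries (0.286%), and 38 were lower (0.679%). Since Calcr entered the rule, members without it had to reach the threshold on the other rule genes and held more 9030622O22Rik, at 502 CPM in the HFD library and 495 CPM in the NFD library, against 345 and 340 CPM in those with it. Depth was alike, with medians of 13813 UMIs with Calcr and 14710 without it in HFD members, and 9273 and 9017 in NFD members. Within the single cluster that holds most members, 8 of the 16 higher genes and 23 of the 38 lower genes were called again.

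Sst was lower where Calcr was detected. The rule sums Calcr with 9030622O22Rik and Prox1, and its part in this difference was not tested. In the cluster 9030622O22Rik had a log2 ratio of -0.48 (-0.67 to -0.28) in HFD members with Calcr over those without, and of -0.00 (-0.31 to 0.31) in NFD members. Sst there had 340 UMIs in 89 HFD members with Calcr and 329 UMIs in 51 without (log2 ratio -0.70, -0.92 to -0.48), and 133 UMIs in 48 NFD members with Calcr and 189 in 33 without (-0.96, -1.29 to -0.63). Several transcription factor genes went the same way, with Nfib at -0.93 and -1.04, Nfix at -1.25 and -1.85, Satb1 at -1.42 and -1.42, Rarb, a retinoic acid receptor gene, at -1.96 and -1.90, and Ebf1 at -2.41 and -1.18. On the other side stood Tox, an HMG-box transcription factor gene, at 1.53 (1.29 to 1.78) in the HFD library and 1.56 (1.21 to 1.93) in the NFD library. Car8, which encodes a carbonic anhydrase-related protein, had 2.07 and 2.82, Cobll1 2.44 and 1.43, and Synpr 0.95 and 1.28. Foxp2 was higher with Calcr in both libraries, by 0.32 (0.15 to 0.48) and 1.36 (1.09 to 1.63), unequal amounts of which the first is not called. Penk was too sparse in the cluster to place, with 9 UMIs in HFD members with Calcr and 11 in those without, and 0 and 9 in the NFD library. All genes of this division other than Sst, Foxp2 and Il1rapl2 were chosen after their values were seen.

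**Figure D4:**
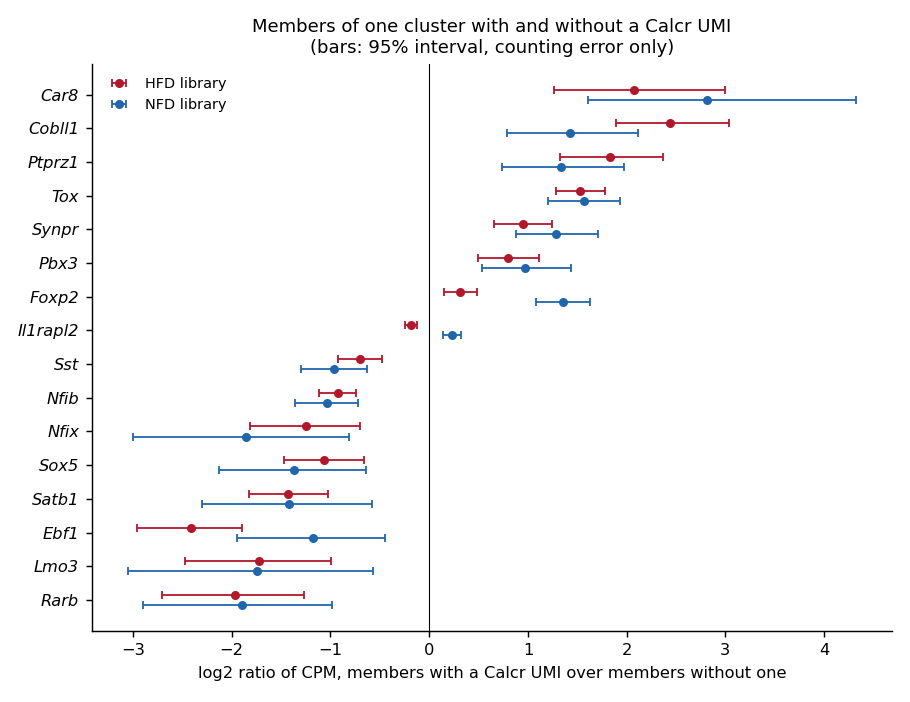
Log2 ratio of CPM of members with a Calcr UMI over members without one, within the cluster that holds most members (89 against 51 HFD members, red, and 48 against 33 NFD members, blue), with exact 95% intervals for counting error. Genes from Car8 to Pbx3 lie above 0 and genes from Sst to Rarb below 0 in both libraries, while Il1rapl2 lies at -0.18 in the HFD library and 0.23 in the NFD library.

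The same division by Prox1 gave 8 genes higher (0.143%) and 27 lower (0.482%) in members with a Prox1 UMI. Within the cluster none of the 8 and 8 of the 27 were called again, among them Npas3 (-1.42 in the HFD library and -1.65 in the NFD library), Epha6 (-1.57 and -1.06) and Grik1, a kainate receptor subunit gene (-1.34 and -1.54). These were likewise chosen after their values were seen, and members without Prox1 in the cluster numbered 15 in the HFD library and 18 in the NFD library. Sst was at 0.12 (-0.13 to 0.39) and 0.24 (-0.13 to 0.62) over all members by this division, and at -0.16 (-0.51 to 0.21) and -0.55 (-0.93 to -0.15) within the cluster, so its sign turned with the members taken.

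Between the libraries, the proposed markers differed little in members. The log2 ratio of HFD over NFD was 0.14 (-0.04 to 0.33) for Sst, 0.04 (-0.01 to 0.09) for Il1rapl2, -0.13 (-0.25 to -0.00) for Foxp2 and 0.13 (0.08 to 0.18) for Adarb2. Other genes high in members were less even, with Fam163a at -0.29 (-0.63 to 0.07) and Emx2 at -0.78 (-1.51 to -0.04). The levels of Calcr, Prox1 and 9030622O22Rik in members are set by the rule and are not compared. Sst was not even within the set. It was at -0.16 (-0.36 to 0.03) in the members of the cluster and at 2.04 (1.38 to 2.78) in the members outside it. Its sign also turned without nuclei holding an Slc17 UMI. In other GABAergic nuclei Foxp2 was lower in the HFD library (-0.94, -1.05 to -0.83) and so was Il1rapl2 (-0.47, -0.51 to -0.44). The rule also shapes that group, since it is what the rule left. That group holds the nuclei of the same cluster that missed the rule, 59 in the HFD library and 85 in the NFD library. Their part in these ratios was not tested.

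Of 5605 genes with at least 100 UMIs in members, 35 were higher in HFD members than in NFD members by an interval wholly beyond 0.32 on the log2 scale (0.624%) and 18 were lower (0.321%), with a median log2 ratio over all genes of 0.01. Fewer of these genes were called from fewer UMIs. When the members with at least 4000 UMIs were thinned to that depth, 7 genes were higher, 3 of them among the 35. Of the 18 lower genes, 4 were called again. Without nuclei holding another class, 16 of the 35 and 11 of the 18 were called again. Within the cluster, 29 of 4726 genes were higher (0.614%) and 25 lower (0.529%), with 12 of the 35 and 8 of the 18 among them, and some of the rest fell under the minimum of 100 UMIs there.

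**Figure D5:**
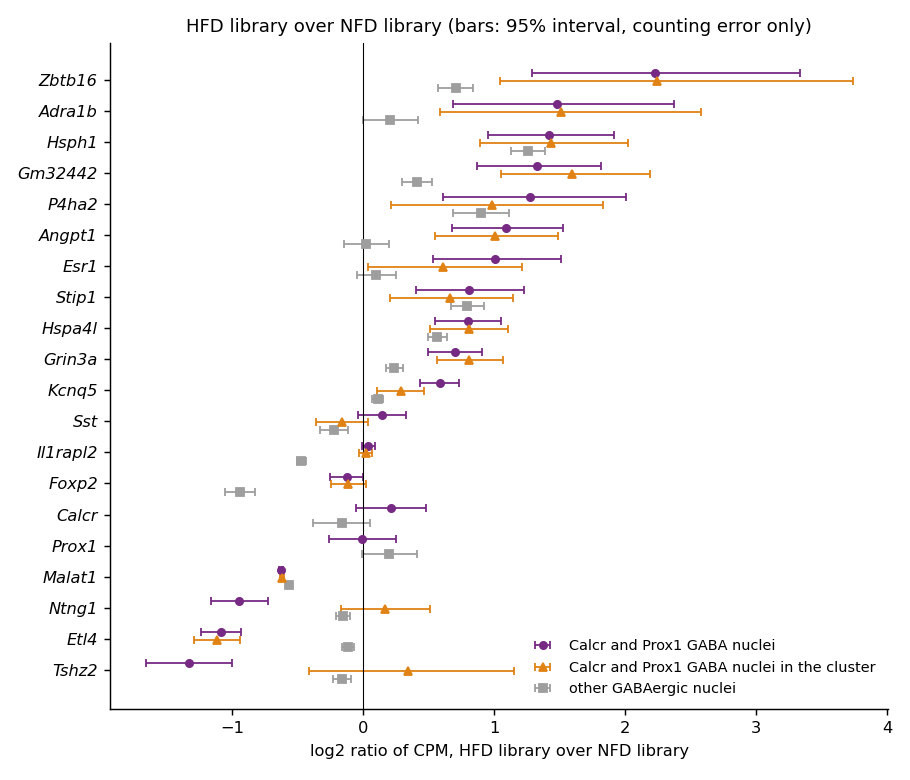
Log2 ratio of CPM of the HFD library over the NFD library in members (purple circles), in members of the cluster alone (orange triangles, not drawn for Calcr and Prox1) and in other GABAergic nuclei (grey squares), with exact 95% intervals for counting error. Calcr and Prox1 belong to the rule, which shapes their ratios. Genes from Zbtb16 to Kcnq5 lie above 0 in members, Malat1 and Etl4 lie below 0 in members and in the cluster, and Ntng1 and Tshz2 lie below 0 in members but at 0.17 and 0.34 in the cluster.

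Zbtb16, a zinc finger transcription factor gene, had 102 UMIs in 54 HFD members and 10 UMIs in 9 NFD members, at 38.6 and 8.24 CPM. Its log2 ratio of 2.23 (1.29 to 3.33) kept between 1.94 and 2.60 over 16 alternatives, and in other GABAergic nuclei it was 0.70 (0.57 to 0.84). Adra1b, the alpha-1B adrenergic receptor gene, had 91 UMIs in 55 HFD members and 15 in 14 NFD members (1.48, 0.68 to 2.37, and 1.24 to 1.62 over the alternatives), against 0.20 (-0.01 to 0.41) in other GABAergic nuclei. Angpt1, which encodes the secreted ligand angiopoietin 1, was at 102 CPM in HFD members and 47.8 CPM in NFD members (1.09, 0.68 to 1.53, and 0.80 to 1.83 over the alternatives), with 0.02 (-0.15 to 0.20) in the other nuclei. Esr1, the estrogen receptor alpha gene, named after its values were seen, had 197 UMIs in 67 HFD members and 45 in 28 NFD members (1.01, 0.53 to 1.51), with 0.10 (-0.05 to 0.25) in the others. Within the cluster Esr1 was at 0.61 (0.04 to 1.21), and outside it at 1.90 (1.01 to 2.91). The difference between members and other nuclei in these ratios was not tested.

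Of 15 heat shock chaperone genes measured, 3 were called higher in HFD members and none lower, beside 0.624% called higher over all genes. Hsph1, a co-chaperone gene of the HSP110 family, had 256 UMIs in 106 HFD members and 44 in 33 NFD members (96.9 and 36.2 CPM, log2 ratio 1.42, 0.95 to 1.91), and 1.26 (1.13 to 1.39) in other GABAergic nuclei. Stip1, which links the chaperones HSP70 and HSP90, had 0.81 in members and 0.79 in the others, and Hspa4l 0.80 and 0.57. Over the 15 genes, 11 lay above 0 and 4 below, with a median of 0.50, beside 0.51 in other GABAergic nuclei and 0.01 over all genes. P4ha2, a subunit gene of collagen prolyl hydroxylase, had 1.28 (0.61 to 2.00) in members and 0.90 in the others.

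Among channel and receptor genes, 1 of 32 potassium channel genes, 1 of 21 glutamate receptor genes and 1 of 9 monoamine and acetylcholine receptor genes (Adra1b) were called higher in HFD members. Over all genes 0.624% were called higher, and a single call in so short a list says little about the list. Kcnq5, a subunit gene of the M-type potassium current, was at 576 CPM in HFD members and 385 CPM in NFD members (0.58, 0.43 to 0.73), but at 0.28 (0.10 to 0.47) within the cluster, and Grin3a, an NMDA receptor subunit gene, at 328 and 202 CPM (0.70, 0.49 to 0.91). Of 32 potassium channel genes measured 25 lay above 0, with a median of 0.15, beside 0.10 in other GABAergic nuclei. Cntnap5b and Cntnap5c, neurexin-related adhesion genes, had 0.57 and 0.67. Gm32442, Mid1 and Pbx4 had 1.33, 1.13 and 1.09, with 0.41, 0.28 and 0.55 in other GABAergic nuclei.

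A pair of the largest ratios rested on few nuclei. Tph2, the tryptophan hydroxylase gene of serotonergic neurons, had 229 UMIs in 7 HFD members and 35 in 2 NFD members, and a single nucleus gave 59.0% of the HFD UMIs. Its log2 ratio of 1.59 became -2.17 when nuclei with an Slc17 UMI were left out. Tcf7l2, a transcription factor gene of Wnt signalling, had 96 UMIs in 17 HFD members and 19 in 5 NFD members (1.21, 0.49 to 2.01), and -0.087 when nuclei with at least 2 UMIs of another class were left out. Within the cluster Tcf7l2 was at -0.86 (-2.45 to 0.80).

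Several of the genes lower in HFD members took their ratio from members outside the cluster. Gm28928 had 110 UMIs in 18 HFD members and 148 in 15 NFD members (-1.55, -1.92 to -1.19), and -0.51 (-1.38 to 0.39) within the cluster. Tshz2, a zinc finger homeobox gene, was at 55.6 CPM in 34 HFD members and 140 CPM in 26 NFD members (-1.33, -1.66 to -1.01), but at 0.34 (-0.41 to 1.15) within the cluster. Ntng1, which encodes the axon guidance molecule netrin G1, was at 139 CPM in 59 HFD members and 267 CPM in 40 NFD members (-0.95, -1.17 to -0.73). Within the cluster Ntng1 was at 132 and 118 CPM (0.17, -0.17 to 0.51), and the 27 NFD members outside it held 221 of the 324 NFD UMIs. Etl4 was lower in both sets of members, with 712 UMIs in 126 HFD members and 693 in 84 NFD members (-1.08, -1.24 to -0.93), -1.12 (-1.29 to -0.94) within the cluster, -1.01 (-1.34 to -0.69) outside it and -0.12 in other GABAergic nuclei. Zfp804b had -0.93, and -1.27 (-1.58 to -0.96) within the cluster. Tubgcp5, A330102I10Rik, Gm7173, Ift80 and Gm26760 had ratios between -1.05 and -0.93. The nuclear noncoding RNA Malat1 was lower in HFD members by -0.63 and in the other nuclei by -0.57, and of 9 mitochondrially encoded RNAs measured 7 lay below 0 in members, with a median of -0.25 beside -0.17 in other GABAergic nuclei.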

How the data were processed

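Nuclei of the vlPAG were captured with the 10x Genomics 3' kit (V3) in 1 library per diet. Each deposited matrix gives raw UMI counts, made by the authors with Cell Ranger (version 4.0.0 per the header) and the GRCm38 build. The submitters' processing notes also name bcl2fastq 5.01 and Seurat 3.1.1. The handling of introns and strand was not given in the sources used here.

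Nuclei were kept above 500 UMIs and below 20% mitochondrial UMIs. No doublet caller was run, and leaving out nuclei over 20000 UMIs or with RNA of another class was an alternative. Summed UMIs of each library and group were scaled to CPM. Intervals at 95% were exact Poisson for CPM, conditional binomial for ratios and Clopper-Pearson for shares, in Python 3.11.15 with numpy 2.4.6, scipy 1.17.1, pandas 2.3.3 and matplotlib 3.10.9. UMIs of 1 nucleus are not independent, so these intervals are too narrow for differences between nuclei or mice. GABAergic nuclei were clustered in scanpy 1.11.5 and python-igraph 0.11.9 (Leiden, 20 principal components, 15 neighbours, resolution 1). The ratio step was tested on simulated Poisson counts with known changes and no variation between nuclei, so that test covers counting error only.

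The members and the 34 gene lists were chosen with earlier results of these data known. Named genes were the rule genes and proposed markers, up to 4 members per list with the largest ratios, the 12 highest and 12 lowest of members over other GABAergic nuclei, and the 10 most above and below 0 for HFD over NFD. Alternatives changed the UMI threshold, the transmitter rule, Six3, filters, depth, scaling, weighting and the minimum of 100 UMIs. The clusters, the comparison within the cluster and the divisions by Calcr and Prox1 were added after the data were seen. The gene annotation was GENCODE M21.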

Additional observations from a re-analysis of the deposited data

Results flagged for a closer look

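Gm7173 was the 1 gene called between the libraries in members whose interval lay on the opposite side of 0 in other GABAergic nuclei. Its log2 ratio of HFD over NFD was -0.997 (-1.5 to -0.49) in members, from 72 UMIs in 48 HFD members and 66 UMIs in 36 NFD members, and 0.17 (0.01 to 0.33) in other GABAergic nuclei. The difference between these ratios was not tested.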

How the results depend on the processing

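No paired analysis was possible because each diet has 1 library and no replicate numbers. The share of members was 5.10% in the NFD library at a threshold of 3 UMIs, 6.15% in the HFD and 2.44% in the NFD library at 6 UMIs, 8.67% and 5.58% with at least 3 GABAergic UMIs required, and 2.76% and 2.10% (4000 UMIs) or 0.798% and 0.175% (2000 UMIs) after thinning before the rule. Genes higher in members numbered 29 after thinning, and genes lower in members 51 at most 20000 UMIs per nucleus. For HFD over NFD, 7 genes were higher after thinning. Genes lower in HFD numbered 28 at most 20000 UMIs, 28 without Malat1 and mitochondrial RNA in the totals, 28 without nuclei holding another class (chosen after seeing the data), 44 at a minimum of 50 UMIs and 10 at 200. With nuclei weighted equally and no interval, 122 and 532 genes were past 2-fold in members and 701 and 648 past 0.32 on the log2 scale between the libraries, since the value alone decided. For HFD over NFD, some of the called genes followed over the alternatives turned in sign. These were Tph2 without Slc17 nuclei (-2.17), Tcf7l2 without nuclei of another class (-0.087), and, within the cluster (chosen after seeing the data), Tcf7l2 (-0.86), Ntng1 (0.17) and Tshz2 (0.34). Of uncalled markers, Adarb2 (-0.080) and Il1rapl2 (-0.16) turned at 6 UMIs, and Sst without Slc17 nuclei (-0.0021) and within the cluster (-0.16). Npy in members over other nuclei (1 alternative in each library) and Tph2 without nuclei of another class gave no value, since 1 side had no UMI. The log2 ratios of Sst, Foxp2, Il1rapl2, Adarb2, Fam163a, Emx2, Otx2 and Pde11a in members over other nuclei stayed above 0 in both libraries under all 15 alternatives, with Sst between 1.72 and 2.33. The cause of these moves was not tested. Depth limits genes with few UMIs in members, such as the RAMP genes.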
